A study of Mus musculus with 8 samples.

Results

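The 10 genes described here encode the transcription factor NFkB and the proteins that hold it in check. They were chosen by name and by function, as the 5 NFkB subunit genes Nfkb1, Nfkb2, Rel, Rela and Relb and the 5 IkB inhibitor genes Nfkbia, Nfkbib, Nfkbie, Nfkbiz and Bcl3. Their Ensembl identifiers were found among the 55414 gene identifiers of the count tables, and all 10 were among the 16778 genes with enough counts to be tested. RNA-seq was performed on neutrophils sorted from the spleen of mice on the FVB background at 10 weeks of age, all housed under specific and opportunistic pathogen-free (SOPF) conditions. The 4 control samples were wild-type (WT), and the other 4 carried the Cxcr2-/- genotype, a loss of the chemokine receptor CXCR2 in the whole animal and not in neutrophils alone, on a line backcrossed to FVB. The labels name no treatment for either group. Cells were enriched with CD11b beads and sorted as CD45+ CD11b+ Ly6G+ F4/80- cells, so that a change in a gene can come from the neutrophils themselves or from a shift in which cells or maturation stages pass that gate.

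NFkB works as a dimer. In resting cells the dimer is kept in the cytoplasm by a classical IkB protein. When a receptor for a cytokine or a microbial product is engaged, the IkB kinase complex phosphorylates IkB, which is ubiquitinated and degraded, and the freed dimer enters the nucleus. Rela, Rel and Relb carry the transactivation domain, whereas Nfkb1 and Nfkb2 encode the precursors p105 and p100, which are processed to p50 and p52 and contain IkB-like ankyrin repeats of their own. Nfkbia, the gene of IkBα, is itself induced by NFkB, which makes it the best known negative feedback of the pathway. Nfkbiz and Bcl3 encode atypical, nuclear IkB proteins that bind p50 or p52 and can raise or lower transcription. In neutrophils the pathway drives inflammatory cytokines, chemokines and survival genes.

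Promoter sequences are shown first because the feedback runs through NFkB sites. RefSeq promoter windows, each with 250 bases before and 50 bases after a transcription start on GRCm38.p6, were found for 7 of the 10 genes, with 9 windows in all. Nfkb1, Relb and Nfkbiz had no window. The kappaB consensus, the 10-letter binding motif of NFkB, was searched on both strands. It occurred in 5 of the 7 genes, namely Nfkb2, Rel, Nfkbia, Nfkbie and Bcl3, and in 5.14% of all 27025 genes of the table (4.51% of 32851 promoter windows). No match was found in the windows of Rela and Nfkbib. A match of letters is a description and not evidence of binding. The windows below are those of 4 genes with a match and that of Nfkbib, without one, and are written 5′ to 3′ on the strand of the gene, with the bases of consensus matches in capitals and overlapping matches merged.
Nfkbia, chr12:55492598-55492897, minus strand: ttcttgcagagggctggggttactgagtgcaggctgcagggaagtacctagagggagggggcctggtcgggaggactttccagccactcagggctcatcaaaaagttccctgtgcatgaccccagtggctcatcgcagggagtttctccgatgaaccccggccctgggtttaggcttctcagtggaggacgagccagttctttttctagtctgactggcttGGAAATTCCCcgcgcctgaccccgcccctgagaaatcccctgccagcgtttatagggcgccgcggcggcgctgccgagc
Rel, chr11:23770920-23771219, minus strand: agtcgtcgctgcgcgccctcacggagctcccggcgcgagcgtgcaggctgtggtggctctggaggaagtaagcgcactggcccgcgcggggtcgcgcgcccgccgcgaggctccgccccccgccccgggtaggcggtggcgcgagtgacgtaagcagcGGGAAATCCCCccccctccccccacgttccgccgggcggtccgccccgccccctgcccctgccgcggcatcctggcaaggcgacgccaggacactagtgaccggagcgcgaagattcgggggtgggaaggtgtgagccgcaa
Nfkb2, chr19:46304487-46304786, plus strand: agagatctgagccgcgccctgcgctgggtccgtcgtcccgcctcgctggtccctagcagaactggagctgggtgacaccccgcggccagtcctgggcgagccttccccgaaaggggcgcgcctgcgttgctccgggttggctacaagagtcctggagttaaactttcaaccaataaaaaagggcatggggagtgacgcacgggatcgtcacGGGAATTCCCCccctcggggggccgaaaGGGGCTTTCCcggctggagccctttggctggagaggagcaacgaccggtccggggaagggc
Bcl3, chr7:19822706-19823005, minus strand: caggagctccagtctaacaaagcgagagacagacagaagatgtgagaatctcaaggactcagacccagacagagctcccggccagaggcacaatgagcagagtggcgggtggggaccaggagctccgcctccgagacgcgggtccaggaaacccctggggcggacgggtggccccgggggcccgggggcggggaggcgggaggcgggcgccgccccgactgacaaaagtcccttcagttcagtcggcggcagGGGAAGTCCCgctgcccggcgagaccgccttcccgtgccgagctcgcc
Nfkbib, chr7:28766595-28766894, minus strand: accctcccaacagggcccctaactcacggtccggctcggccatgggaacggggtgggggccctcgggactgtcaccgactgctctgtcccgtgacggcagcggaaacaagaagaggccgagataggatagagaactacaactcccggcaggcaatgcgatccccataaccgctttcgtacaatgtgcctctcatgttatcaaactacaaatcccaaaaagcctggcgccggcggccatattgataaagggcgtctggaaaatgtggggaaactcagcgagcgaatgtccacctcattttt
The Nfkbia match lay 29 to 20 bases before the start and reads gggaatttcc on the opposite strand. Rel held 2 matches that overlapped, between 92 and 82 bases before its start. The Nfkb2 window shown held 3, of which 2 overlapped, and a further annotated start held 2, of which the downstream match is also the match in the overlapping window of another start. In Bcl3 the match lay just after the start. The match of Nfkbie, gggggattcc, lay 106 to 97 bases before its start in chr17:45555450-45555749 on the plus strand.

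Each library held between 34220182 and 46233555 counts in genes. In WT neutrophils Cxcr2 itself had a level of 1956 ± 221 CPM (SD, n = 4), where CPM is the count scaled to the size of the library. In Cxcr2-/- neutrophils it was 17.1 ± 3.46 CPM, so every library matched its label. CPM values here are scaled with TMM factors, and gene tests are edgeR quasi-likelihood tests with Benjamini-Hochberg adjustment over all 16778 genes. Summed neutrophil markers ranged from 50137 to 68255 CPM in WT and from 107052 to 139425 CPM in Cxcr2-/- libraries, with 9 of 12 markers higher and 2, Cxcr2 and Csf3r, lower. Among markers of other cells, 7 of 8 B cell genes were lower (summed 78.2 to 171 CPM against 32.9 to 76.1 CPM), the 6 dendritic cell genes summed to 486 to 719 CPM against 114 to 165 CPM, and the 9 monocyte and macrophage genes to 703 to 820 CPM against 844 to 948 CPM. Most of the dendritic cell sum was Itgax, while Siglech was at or near 0, and most of the macrophage sum was Csf1r, which was lower, and Ly6c2, which was higher, with C1qa at 5.79 CPM or less in every library. The T and NK cell genes summed to 98.1 to 118 CPM against 91.8 to 140 CPM, nearly all of it Cd3d, with Cd3e, Cd8a and Trac near 0. Eosinophil and basophil genes summed to 48.8 to 68.9 CPM against 37.6 to 64.4 CPM, with Mcpt8 and Fcer1a at or near 0, and megakaryocyte genes to 15.3 to 20.7 CPM against 10.3 to 15.1 CPM, with Pf4 and Ppbp near 0. The share of read pairs outside genes also differed, at 31.4% to 41.5% in WT and 26.7% to 31.9% in Cxcr2-/- libraries. The part of these differences in the results below was not tested, except through the covariate fits given with the processing alternatives. In sorted bulk RNA, fewer cells of a type and less RNA per cell cannot be told apart.

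Across the 10 genes, 6 were lower in Cxcr2-/- neutrophils at an adjusted p under 0.05, against 21.0% of all genes tested. Those were Nfkb2, Rel, Relb, Nfkbia, Nfkbie and Nfkbiz. Nfkb1, Nfkbib and Bcl3 were higher, against 23.7% of all genes, and Rela did not pass. When a change of at least 1.5-fold was required as well, 4 genes remained lower (Rel, Relb, Nfkbia and Nfkbiz), against 15.7% of all genes, and 2 remained higher (Nfkbib and Bcl3), against 15.7%. The ranges of the 4 WT and the 4 Cxcr2-/- libraries did not overlap for 9 of the 10 genes, against 41.6% of all genes. With the share of read pairs outside genes as a covariate, only Relb, Nfkbiz and Nfkbib of the 10 still passed. The SE grew in that fit. The log2 fold changes of Nfkb2 (-0.44) and Nfkbia (-0.68) stayed near their values without it. Those of Rel (-0.33), Nfkbiz (-1.02), Nfkbib (0.62), Nfkb1 (0.21), Bcl3 (0.49) and Nfkbie (-0.24) became smaller in size. Those of Relb (-0.70) and Rela (-0.32) became larger in size. Another covariate was the sum of log2(CPM + 1), not of CPM, over the marker genes of non-neutrophil cells. Some of these markers themselves differed between the genotypes, as given above. With this covariate Nfkb1 (0.25), Nfkb2 (-0.32), Nfkbia (-0.47) and Nfkbie (-0.29) did not pass. The median log2 fold change of the 10 genes was -0.38, and that of all genes tested was 0.01. Both classes held changes in both directions, since 3 subunits were lower and 1 higher, and 3 inhibitors were lower and 2 higher. Scaling moved the balance of calls over the whole transcriptome: with TMM 53.0% of called genes were higher, and with upper-quartile scaling 41.2%, with the median of all genes at -0.11.

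**Figure D1:**
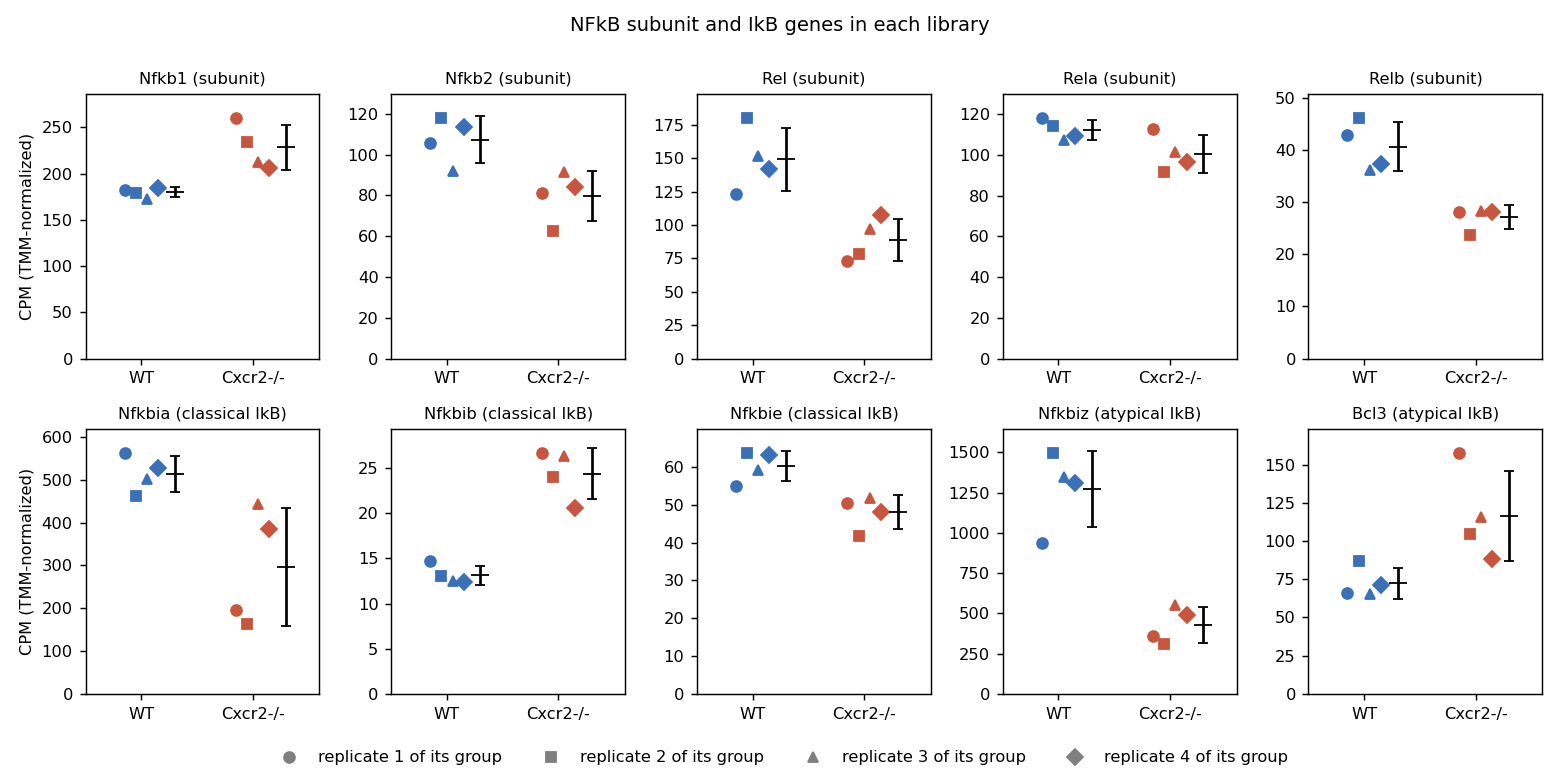
Level of each of the 10 genes in each library, as TMM-normalized CPM on a linear axis from 0, with 4 WT libraries in blue, 4 Cxcr2-/- libraries in red, marker shapes for the replicate number within a group, and black bars for the mean ± SD. Rela is the gene whose groups overlap, and Nfkbia is the gene whose Cxcr2-/- libraries lie farthest apart, from 163 to 443 CPM.

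Among the subunits, Rel, the gene of c-Rel, was the one with the largest change. Its level was 123, 180, 151 and 142 CPM in WT replicates 1 to 4 and 72.8, 78.6, 96.9 and 107 CPM in Cxcr2-/- replicates 1 to 4. Every Cxcr2-/- library was below every WT library. The log2 fold change was -0.75 (SE 0.14, adjusted p = 0.000968). Rel lies on chromosome 11 at 23736847 to 23770970 on the minus strand (GRCm38).

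Relb, whose protein pairs mainly with p52 in the non-canonical branch of the pathway, was also lower. It was measured at 42.9, 46.2, 36.2 and 37.3 CPM in WT and at 28.1, 23.7, 28.4 and 28.2 CPM in Cxcr2-/- libraries. The groups did not overlap, and 3 of the 4 Cxcr2-/- values were nearly identical, with replicate 2 below them. Relb had a log2 fold change of -0.59 (SE 0.11, adjusted p = 0.000674), just past 1.5-fold. Relb is at 19606217 to 19629438 on chromosome 7, minus strand.

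Nfkb2, the gene of p100 and p52 and the partner of Relb, fell by 0.43 on the log2 scale (SE 0.12, adjusted p = 0.0123). WT libraries gave 106, 118, 91.8 and 114 CPM, and Cxcr2-/- libraries 81.1, 62.4, 91.2 and 84.1 CPM. The groups met almost without a gap, as the highest Cxcr2-/- value was 0.556 CPM under the lowest WT value. Nfkb2 spans 46304320 to 46312385 on chromosome 19, plus strand, and shares 531 exon bases with the opposite-strand gene AC114539.1 and 299 with Psd, both far less abundant (19.8 and 13.6 CPM in WT). Whether strand was used in counting is not given in the sources used here, so reads of that stretch are uncertain.

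Nfkb1, the gene of p105 and p50, moved the other way. It was at 183, 179, 173 and 185 CPM in WT and at 260, 235, 213 and 206 CPM in Cxcr2-/- libraries. The WT libraries were tightly grouped and all below the Cxcr2-/- libraries. On the log2 scale the change was 0.34 (SE 0.10, adjusted p = 0.0105), a rise of 1.27-fold, and it missed the threshold with upper-quartile scaling (adjusted p = 0.0608). Nfkb1 is on chromosome 3 at 135584655 to 135691547, minus strand.

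Rela, which encodes p65, the main transactivating subunit, did not pass the test. Its values were 118, 114, 107 and 110 CPM in WT and 113, 91.5, 101 and 96.5 CPM in Cxcr2-/- libraries, and the groups overlapped. Its log2 fold change of -0.16 (SE 0.09, adjusted p = 0.169) had a 95% confidence interval from -0.35 to 0.03. Rela passed with upper-quartile scaling (log2 fold change -0.28, adjusted p = 0.0186), under which the median of all genes was -0.11, with total-count scaling (0.0217) and among protein-coding genes alone (0.0299). It lies at 5637483 to 5648130 on chromosome 19, plus strand.

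**Figure D2:**
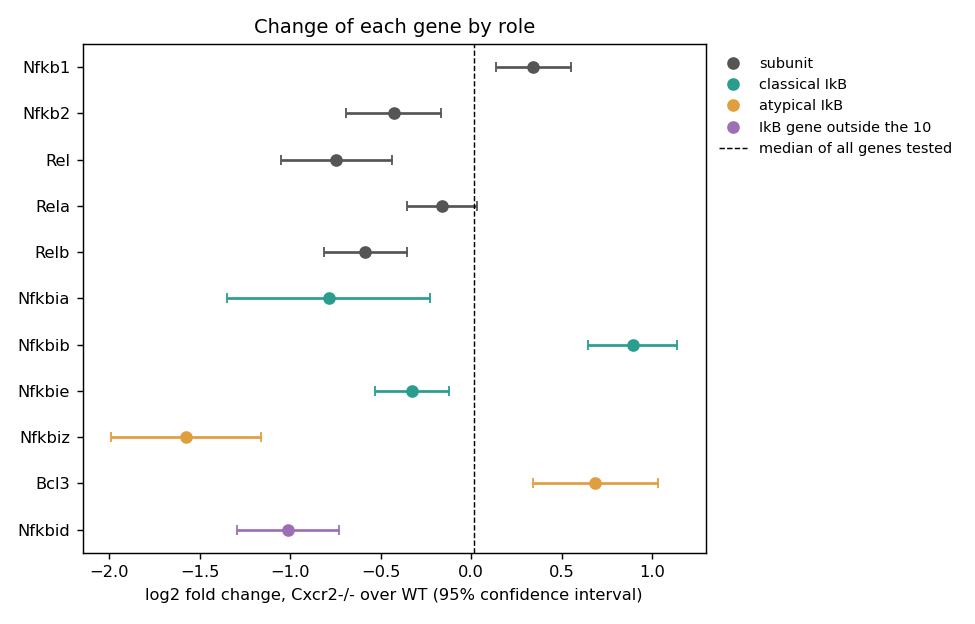
Log2 fold change of each gene, Cxcr2-/- over WT, from edgeR, with points for the estimate and bars for the 95% confidence interval, coloured by role (subunit, classical IkB, atypical IkB, and Nfkbid outside the 10 genes). The dashed line is the median of all genes tested, 0.01. Subunits and inhibitors both appear on either side of the line, and the interval of Rela crosses it.

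The classical IkB genes separated as well. Nfkbia was at 562, 461, 503 and 527 CPM in WT and at 197, 163, 443 and 386 CPM in Cxcr2-/- libraries. The groups did not overlap, but the Cxcr2-/- libraries fell into a low pair, replicates 1 and 2, and a pair close to the WT range, replicates 3 and 4. The log2 fold change was -0.79 (SE 0.26, adjusted p = 0.0256), the widest error of the 10 genes. The coefficient of variation was 8.21% in WT and 46.4% in Cxcr2-/- libraries. The test was lost when any of 4 libraries was left out, with adjusted p = 0.0624 without WT replicate 1, 0.0513 without WT replicate 4, 0.0642 without Cxcr2-/- replicate 1 and 0.0517 without Cxcr2-/- replicate 2. Nfkbia lies on chromosome 12 at 55489410 to 55492647, minus strand.

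The same split of the Cxcr2-/- libraries was seen in part of the genes known to respond to NFkB. Replicates 3 and 4 were both above replicates 1 and 2 for 16 of 30 target genes and both below for 2, against 28.8% and 26.4% of all genes tested, and for 18 and 0 of 24 immediate early genes. The 2 genes that follow were chosen after their values were seen. Tnfaip3, the gene of the deubiquitinase A20, was at 67.4, 55.0, 162 and 162 CPM in Cxcr2-/- replicates 1 to 4. Cxcl2, a neutrophil chemokine, was at 12.7, 9.91, 235.5 and 193 CPM. Summed immediate early genes, a group that responds within minutes to stimulation and to cell handling, were at 4337, 3466, 5792 and 5209 CPM in the same order, against 16200 to 18619 CPM in WT. Replicates 1 and 2 were the low pair in these 3 cases. Il1rn, the interleukin-1 receptor antagonist gene, did not have that order, at 128, 147, 118 and 118 CPM. Of the 10 genes, replicates 3 and 4 were both above replicates 1 and 2 for 5 (Nfkbia, Nfkbiz, Nfkb2, Rel and, by under 1 CPM from replicate 1, Relb), both below for Nfkb1, and neither for Rela, Nfkbib, Nfkbie and Bcl3. The B cell markers summed to 36.5, 32.9, 57.9 and 76.1 CPM in those libraries, with the same pair low. The erythroid markers, at 1.87, 1.66, 10.95 and 11.3 CPM, had that pair low too, but 3 of these 6 genes were below 1 CPM everywhere. The dendritic cell and the eosinophil and basophil sums also had it low. T and NK cell markers had it high, at 140, 118, 98.8 and 91.8 CPM. Monocyte and macrophage, megakaryocyte and neutrophil sums had neither order. The part of handling or of other cells in the spread of Nfkbia was not tested.

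Nfkbie, the gene of IkBε, was lower by a smaller amount. It was at 55.0, 63.5, 59.1 and 63.3 CPM in WT and at 50.4, 41.7, 51.7 and 48.2 CPM in Cxcr2-/- libraries. The groups did not overlap, with a log2 fold change of -0.33 (SE 0.09, adjusted p = 0.0131). Nfkbie is on chromosome 17 at 45555703 to 45563169, plus strand.

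Nfkbib, the gene of IkBβ, rose in all Cxcr2-/- libraries. It was the least abundant of the 10 genes per length in WT and was measured at 14.7, 13.0, 12.5 and 12.4 CPM there, against 26.6, 24.0, 26.4 and 20.5 CPM in Cxcr2-/- libraries. The gap between the groups was wider than the whole WT range. For Nfkbib the log2 fold change was 0.89 (SE 0.11, adjusted p = 4.79e-05), or 1.86-fold, and passed under every alternative tried. Nfkbib lies at 28758251 to 28767512 on chromosome 7, minus strand. It shares 314 exon bases with the opposite-strand gene Ccer2 (0.203 CPM in WT and 0.323 CPM in Cxcr2-/- libraries). A further 42 are shared with Sirt2, also on the opposite strand. Sirt2 was more abundant than Nfkbib and likewise rose, from a WT mean of 48.1 CPM to a Cxcr2-/- mean of 71.6 CPM. The Sirt2 log2 fold change was 0.58 (SE 0.09, adjusted p = 0.000344). As for Nfkb2, reads of the shared bases are uncertain because the use of strand in counting is not given. Their part in the rise of Nfkbib was not tested.

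Among the atypical IkB genes, Nfkbiz, the gene of IkBζ, had the largest change of the 10. WT libraries were at 936, 1493, 1349 and 1308 CPM, and Cxcr2-/- libraries at 358, 309, 551 and 489 CPM. The lowest WT library was still 386 CPM above the highest Cxcr2-/- library. Nfkbiz had a log2 fold change of -1.58 (SE 0.19, adjusted p = 3.45e-05), 2.98-fold lower and at the 3.86 percentile of log2 fold changes over all genes tested. This call held under every alternative. Nfkbiz is on chromosome 16 at 55811375 to 55838899, minus strand.

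Bcl3, by contrast, was higher in Cxcr2-/- neutrophils. It was at 66.2, 86.6, 65.2 and 71.0 CPM in WT and at 157, 104, 116 and 88.0 CPM in Cxcr2-/- libraries. The groups were separated by 1.40 CPM, between WT replicate 2 and Cxcr2-/- replicate 4. Its log2 fold change was 0.69 (SE 0.16, adjusted p = 0.00363). Bcl3 lies at 19808462 to 19822770 on chromosome 7, minus strand, 179 kb from Relb, which moved in the opposite direction, with 10 protein-coding genes between them. It shares 161 exon bases with its antisense gene Gm16175 (0.403 CPM in WT and 0.465 CPM in Cxcr2-/- libraries).

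Nfkbid, the gene of IkBNS and a further atypical member outside the 10 genes, fell from 165 ± 7.17 CPM to 81.9 ± 16.1 CPM (SD, n = 4 each). Its log2 fold change was -1.01 (SE 0.13, adjusted p = 4.93e-05). Its direction was that of Nfkbiz and not that of Bcl3.

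The balance of inhibitors against subunits was then computed within each library. The mean log2(CPM + 1) of the 5 inhibitors minus that of the 5 subunits was 0.31 ± 0.06 (SD, n = 4) in WT and 0.36 ± 0.15 in Cxcr2-/- libraries, a difference of 0.05. The sign of that difference was not stable, since it was -0.0198 without Cxcr2-/- replicate 3 and 0.0967 without Cxcr2-/- replicate 2, and it was 0.23 with Nfkb1 and Nfkb2 left out. The ranges overlapped, from 0.26 to 0.38 in WT and from 0.22 to 0.57 in Cxcr2-/- libraries. With the classical inhibitors alone the values were -0.48 ± 0.10 and -0.30 ± 0.18. In these means each gene weighs the same, whatever its level. Summed CPM, in which abundant genes weigh most, was 560 to 638 in WT and 491 to 555 in Cxcr2-/- libraries for the subunits. For the classical IkB genes it was 538 to 631 against 229 to 521, and for the atypical IkB genes 1002 to 1580 against 413 to 667. The difference between the class averages thus overlapped between the genotypes, while the summed CPM of each class and some ratios of single genes did not. Nfkbiz over Nfkb1 was between 5.12 and 8.33 in WT and between 1.31 and 2.59 in Cxcr2-/- libraries. Nfkb2 over Nfkb1 went from 0.531 to 0.658 in WT and from 0.266 to 0.428 in Cxcr2-/- libraries, and Relb over Rela from 0.337 to 0.404 and from 0.249 to 0.292. These 3 ratios did not overlap between groups. For the ratios over Nfkb1 this follows from the single genes and is no separate result. Nfkbiz and Nfkb2 were lower and Nfkb1 higher in every Cxcr2-/- library. Nfkbia over Rela, the inducible inhibitor against the main subunit, was 4.75, 4.04, 4.69 and 4.81 in WT and 1.74, 1.79, 4.37 and 3.99 in Cxcr2-/- libraries, so Cxcr2-/- replicate 3 fell within the WT range and the groups overlapped. Rel over Rela overlapped too, at 1.04 to 1.57 in WT and 0.644 to 1.11 in Cxcr2-/- libraries.

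**Figure D3:**
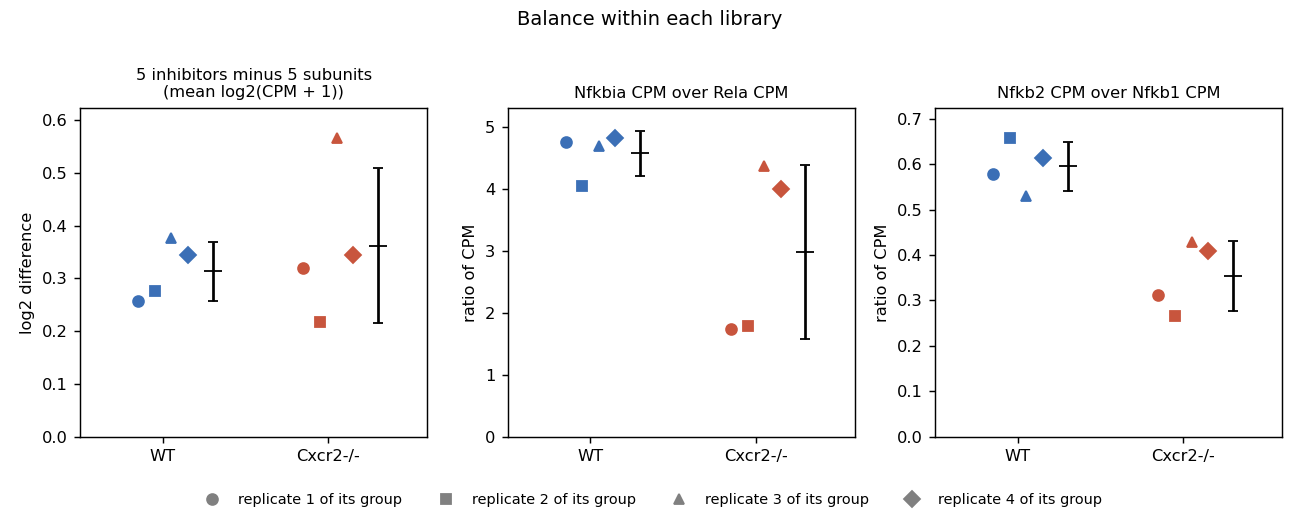
Balance within each library, with WT in blue, Cxcr2-/- in red, marker shapes for the replicate number and black bars for the mean ± SD. The left panel shows the mean log2(CPM + 1) of 5 inhibitors minus that of 5 subunits, the middle panel Nfkbia CPM over Rela CPM, and the right panel Nfkb2 CPM over Nfkb1 CPM. The groups overlap in the left and middle panels and are apart in the right panel, where WT lies at 0.531 or above and Cxcr2-/- at 0.428 or below.

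To compare levels between genes, CPM was divided by the union exon length in kb. In WT the order was Nfkbia (319 CPM per kb), Nfkbiz (253), Rela (36.6), Bcl3 (29.2), Nfkb2 (23.4), Rel (20.0), Nfkbie (19.8), Nfkb1 (14.9), Relb (10.5) and Nfkbib (6.05). The library ranges of the neighbours Nfkbia and Nfkbiz, Rela and Bcl3, Nfkb2 and Rel, and Rel and Nfkbie overlapped, so their order is not resolved. In Cxcr2-/- libraries Nfkbia (185 CPM per kb) and Nfkbiz (85.0) still had the highest means. Nfkbib (11.2) came above Relb (6.98), the opposite order to WT, and the ranges of this pair were apart in both groups. Bcl3 (47.0) had a higher mean than Rela (32.8), and Nfkb1 (18.9) than Nfkb2 (17.4), but the Cxcr2-/- ranges of both pairs overlapped. Rel stood at 11.9 and Nfkbie at 15.8 CPM per kb. The rank of Nfkb1 depends on its length, since its WT rank was 3, at 43.4 CPM per kb, when the longest transcript replaced the union of exons, and on that length it was above Nfkb2 (27.9) in WT already.

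**Figure D4:**
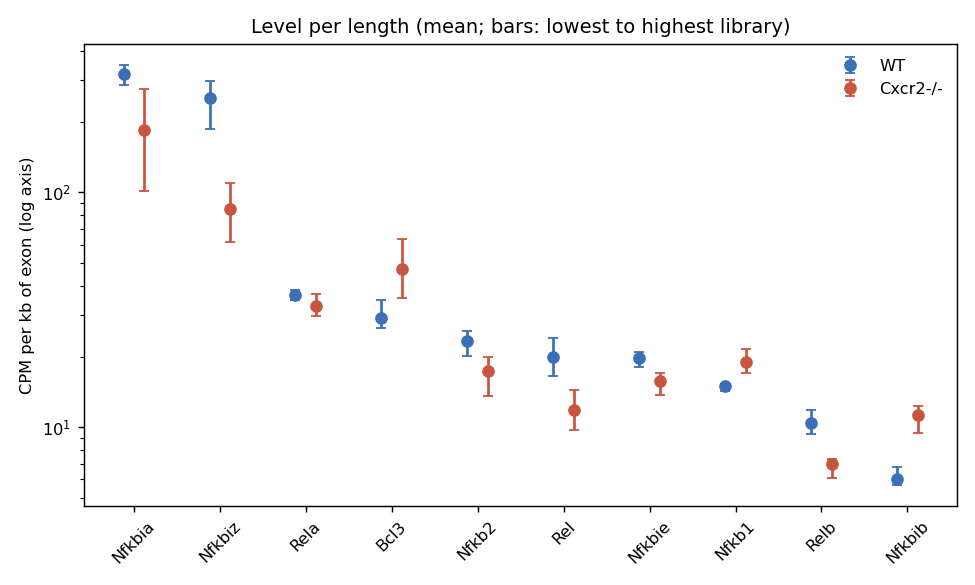
Level per length of the 10 genes, as CPM per kb of union exon on a log axis, with points for the mean of 4 libraries and bars from the lowest to the highest library, WT in blue and Cxcr2-/- in red, ordered by the WT mean. The means of Nfkbia and Nfkbiz lie above those of the other 8 genes in both groups, with the Nfkbiz and Bcl3 ranges overlapping in Cxcr2-/-, and the red point lies above the blue one for Nfkb1, Nfkbib and Bcl3.

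The genes whose profile over the 8 libraries was nearest to that of a member were listed for the 3 members with the largest changes, by the root mean square difference of log2(CPM + 1) after subtraction of the WT mean, among 4226 genes. Nearest to Nfkbiz were Pde4b, a cAMP phosphodiesterase (0.167), Tgm2, a transglutaminase (0.179), and Trib1, a pseudokinase (0.189). Nearest to Nfkbib were Ccnd3, the gene of cyclin D3 (0.0793), Arl2bp (0.0811) and Tuba4a, an alpha tubulin (0.0818). Nearest to Nfkbia were Apoe, an apolipoprotein (0.190), Cd14, the co-receptor for lipopolysaccharide (0.196), and Otulinl (0.226). Apoe had the split of the Cxcr2-/- libraries, at 13.1, 13.0, 47.7 and 32.9 CPM. It was selected for nearness to Nfkbia over these same libraries, so its split is no separate instance. Apoe did not itself pass the test (log2 fold change -0.84, SE 0.34, adjusted p = 0.0624).

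Of 15 genes of the IkB kinase complex and the kinases above it, 4 were lower, 5 higher and 6 did not pass, with a median log2 fold change of 0.02 beside 0.01 for all genes. Those shares were near the 21.0% lower and 23.7% higher over all genes tested. Irak2, a kinase of the interleukin-1 and Toll-like receptor pathway, was lower (-0.68, SE 0.08, adjusted p = 3.85e-05), as were Map3k14 (-0.60), the gene of NIK, which starts the non-canonical branch, Tab2 (-0.26), which binds TAK1, and Ikbkb (-0.26), the gene of the catalytic subunit IKKβ. Ikbke, a noncanonical IkB kinase, was higher by 1.15 (SE 0.11, adjusted p = 4.62e-06), with 11.9 ± 0.969 CPM in WT and 26.2 ± 2.47 CPM in Cxcr2-/- libraries (SD, n = 4). Map3k7, the gene of TAK1, was higher by 0.61 and its partner Tab1 by 0.40. Chuk, the gene of IKKα, did not pass at 0.02.

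Of 16 adaptor genes, 6 were lower, 2 higher and 8 did not pass, with a median of -0.09, beside 21.0% lower and 23.7% higher over all genes. Traf1 (-1.12, SE 0.31), Traf5 (-0.70) and Birc2 (-0.59), whose products sit at tumour necrosis factor receptors, were lower. Traf1 was at 11.3, 27.3, 11.3 and 10.2 CPM in WT replicates 1 to 4, so the size of its change leans on replicate 2. In Cxcr2-/- libraries it was at 4.45 to 8.62 CPM. Ticam1 (0.91), the gene of the Toll-like receptor adaptor TRIF, and Tradd (0.47) were higher. Of 5 genes of the ligase that ubiquitinates IkB, 1 was lower, Btrc (-0.38), 2 were higher, Rbx1 (0.65) and Fbxw11 (0.40), and the median was -0.01, on counts too small to set apart from those shares. Btrc and Fbxw11 encode the alternative F-box proteins that recognise phosphorylated IkB, and they moved in opposite directions.

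Of 17 receptor genes that feed the pathway, 9 were lower, 2 higher and 6 did not pass, with a median of -0.62, beside 21.0% lower and 23.7% higher over all genes. Il1r2, the decoy receptor for interleukin-1 (-1.25, SE 0.29, adjusted p = 0.00356, groups overlapping), Il1rap (-1.02), the shared accessory chain of the interleukin-1 receptor family, and Tlr7 (-0.88) were lower. Tlr1 (1.62, SE 0.26, adjusted p = 0.00028) and Il18r1 (0.66) were higher. Negative regulators other than IkB gave 5 lower, 2 higher and 9 not passed of 16, with a median of -0.22. Passed or not, 14 of the 16 had a log2 fold change below 0 and 2 above. Over all genes tested 8267 were below 0 and 8511 above. Tnfaip3 (-1.51, SE 0.30, adjusted p = 0.0014), Zc3h12a (-1.07), the gene of the RNase regnase-1, and Nlrc3 (-1.07) were lower, whereas Tank (0.62) and Pdlim2 (0.44) were higher.

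Of 30 genes known as NFkB targets, 16 were lower, 4 higher and 10 did not pass, with a median log2 fold change of -1.13, beside 21.0% lower and 23.7% higher and a median of 0.01 over all genes. Ptgs2, the gene of cyclooxygenase 2, went from 741 ± 124 CPM to 79.3 ± 45.2 CPM (log2 fold change -3.22, SE 0.35, adjusted p = 1.42e-05). Ccrl2, a chemerin-binding receptor (-2.87), and Ccl3, a chemokine (-2.72), were also lower. The 4 that rose were Saa3, an acute phase gene at very low level (3.53), Lcn2, a granule protein gene (1.57), Bcl2l1, the gene of the survival factor BCL-xL (0.80), and Tnf (0.50), whose groups overlapped at 34.6 ± 5.30 CPM and 49.1 ± 7.28 CPM. The 24 immediate early genes, which are not NFkB subunits or inhibitors, gave 20 lower, 0 higher and 4 not passed by edgeR, with a median of -1.61, beside the same shares over all genes. Egr1 (-3.54), Atf3 (-3.21) and Fos (-2.82) led this group.

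**Figure D5:**
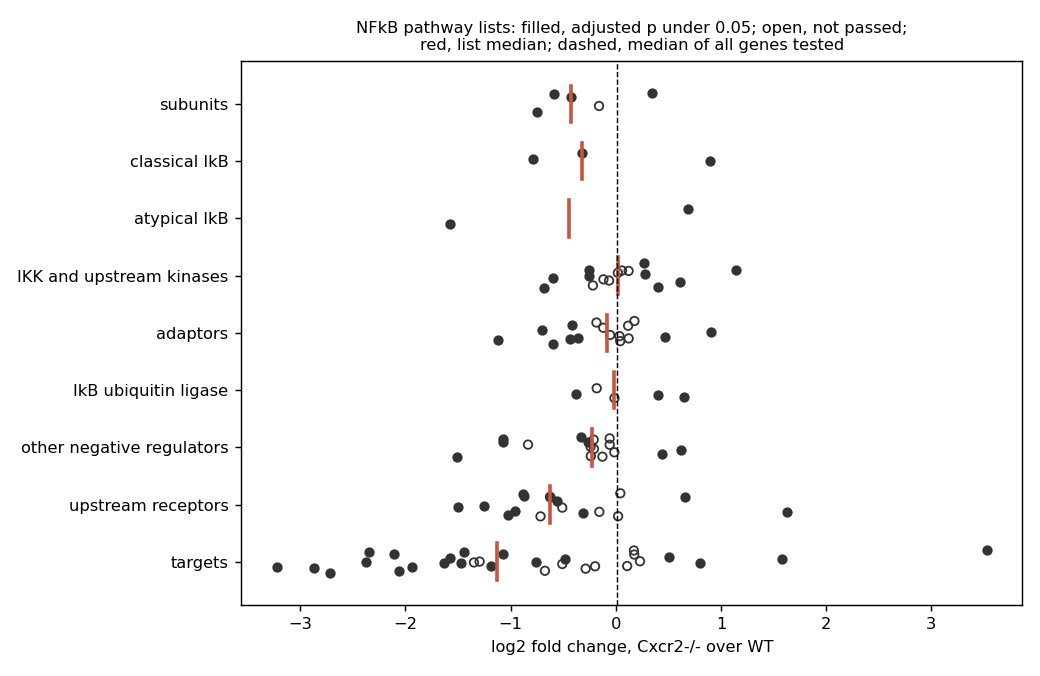
Log2 fold change, Cxcr2-/- over WT, of each gene in 9 lists of the pathway, with filled points for an adjusted p under 0.05 by edgeR and open points for genes that did not pass, red bars for the list median and a dashed line for the median of all genes tested. Medians lie near 0 for kinases (0.02) and the ubiquitin ligase (-0.01) and are lowest for targets (-1.13).

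A list of 10 NFkB genes that the study named from these same samples gave 9 lower and 1 higher, with a median of -0.65. Over all genes 21.0% were lower and 23.7% higher. The study named these genes for their change between the genotypes, so their share of calls follows from that choice. The list shares Nfkb2, Relb and Rel with the 10 genes above and is no independent evidence of direction. Tnfaip2 had the highest CPM in it, which went from 1507 ± 147 (WT) to 636 ± 79.3 (Cxcr2-/-). The gene that was higher was Tnfrsf10b, a death receptor for TRAIL, from 1.98 ± 0.579 to 8.92 ± 0.601 CPM (log2 fold change 2.17, SE 0.20, adjusted p = 3.95e-06).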

How the data were processed

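The 10 genes and the other lists were chosen with earlier results of these data known. Per the study's methods, total RNA was depleted of rRNA, libraries were directional, 150 bp paired reads were trimmed and aligned with STAR to mm10, and the authors deposited raw HTSeq counts per gene for 8 libraries, 4 WT and 4 Cxcr2-/-. The submitters' processing notes name FastQC, HTSeq and mm10. Versioned identifiers were 1 above those of GENCODE M21 for 48091 of 52133 matched genes, so the counting annotation was another release. Names, coordinates and lengths come from M21 (GRCm38), matched without the version. HTSeq summary rows, including the 26.7% to 41.5% of pairs outside genes, were left out of library sizes. Counts were filtered with filterByExpr, scaled with TMM and fitted with edgeR 4.0.16 (R 4.3.3, quasi-likelihood test, all 8 libraries, no covariate). The study used DESeq2, run here as an alternative (1.42.0). The threshold was an adjusted p of 0.05, and 1.5-fold was counted separately. The scripts were tested on simulated counts. Each list's genes were named as up to 3 per direction with the largest change at an average log2 CPM of 1 or more. The labels number the samples as replicates, and the study describes 4 animals per group. Replicate pairs differed by more than sampling noise. Gene promoters come from RefSeq (GRCm38.p6).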

Additional observations from a re-analysis of the deposited data

Results flagged for a closer look

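Relb in Cxcr2-/- replicate 2 stood apart from the other libraries of its group, at 23.7 CPM against 28.1 to 28.4 CPM, and the gap was 0.936 of the range of the group. It was 1 of 22 groups of 4 libraries examined in this way, and chance would flag about 1 in 20. Without that library Relb still passed the test.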

How the results depend on the processing

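Over 18 alternatives for each of the 10 genes, 162 of 180 calls kept their direction and their side of the threshold, 15 lost the threshold, 3 gained it and 0 reversed. Relb, Nfkbib and Nfkbiz passed under every alternative. With the share of read pairs outside genes as a covariate, which itself differs between the genotypes, 2 of the 10 genes were lower and 1 higher, and over all genes 1486 were lower and 1597 higher, against 3526 and 3969. Nfkb1 (log2 fold change 0.21, adjusted p = 0.403), Nfkb2 (-0.44, 0.172), Rel (-0.33, 0.256), Nfkbia (-0.68, 0.285), Nfkbie (-0.24, 0.339) and Bcl3 (0.49, 0.296) then missed the threshold, with larger SE. Some of the non-neutrophil markers also differ between the genotypes. With the summed log2(CPM + 1) of all non-neutrophil markers as a covariate 3 of the 10 were lower and 2 higher. Over all genes 3094 were lower and 3646 higher in that fit. Nfkb1 (adjusted p = 0.0857), Nfkb2 (0.0703), Nfkbia (0.0909) and Nfkbie (0.0559) then missed the threshold. The cause was not tested. Leaving out 1 library gave 5 to 6 genes lower and 3 to 3 higher, and 3062 to 3520 and 3426 to 3774 over all genes. The inhibitor minus subunit difference was 0.23 without Nfkb1 and Nfkb2. It ranged from -0.0198 to 0.10 when 1 library was left out and was -0.0198, below 0, without Cxcr2-/- replicate 3. A replicate block gave 6 lower and 3 higher among the 10 and 3349 and 3719 over all genes. Same-numbered libraries correlated between -0.31 and 0.24, and 2 of 4 WT libraries correlated best with their own number. With only 4 numbers this cannot settle whether the numbers pair the samples, and the main fit used no pairing.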
